A study of Homo sapiens and Mus musculus with 21 samples.

Results

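Ribosome biogenesis factors are proteins that make ribosomal RNA and assemble it with ribosomal proteins, and 38 such genes, listed by name, were followed here through every readout of the series. All 38 were listed among the 19848 genes of the hairpin table, 36 were among the 23037 genes of the ciclopirox table, and all 38 had a mouse gene among the 28692 genes of the thymus matrices. NOP2 and PPAN were not analysed with ciclopirox, where neither symbol was listed. RNA polymerase I copies the ribosomal RNA precursor in the nucleolus, small nucleolar ribonucleoproteins (snoRNPs) guide its chemical modification and cleavage, and separate sets of factors then mature the small (40S) and large (60S) subunits. Dividing cells, among them early thymocytes and T-cell leukemia cells, are known for a high demand for ribosomes.

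The series is about DHX15, an RNA helicase with roles in splicing and in making ribosomes. CUTLL1, a human line of T-cell leukemia, was infected with lentivirus carrying a hairpin. This was the DHX15 hairpin shDHX15-1, the DHX15 hairpin shDHX15-2 or the control hairpin shGFP, with 3 bulk RNA-seq libraries each. A second experiment held 3 libraries of CUTLL1 treated with 5 µM ciclopirox, an antifungal that binds iron, and 3 with DMSO, the solvent. For RNA immunoprecipitation (RIP) of the same line, 2 DHX15, 1 IgG and 1 input library stand behind 1 list of peaks. The thymus was read by droplet single-cell RNA-seq in total thymocytes at 6 weeks of age, with 1 library from Dhx15 KO and 1 from Dhx15 fl/fl mice. The sources used here do not give the Cre driver, the number of mice, the time after infection or the hours of ciclopirox. They also do not say that replicates were grown separately, so the tests reflect the scatter of these libraries, which may be technical.

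Hairpin libraries had totals of 59702150 to 62633707 reads, and the ciclopirox experiment had 32451469 to 37177509 reads in genes. All 8 listed markers of T-cell leukemia and thymocytes were in both tables, at 0.529 to 312.1 RPKM (reads scaled to gene length and library depth) in the hairpin libraries, and they moved in both directions. For the mean of both hairpins 4 of the 7 tested rose (CD3D, CD3E, CD7, NOTCH3) and 3 fell (CD3G, CD1A, HES1), and RAG1 was under the filter. With ciclopirox 2 of 8 rose (NOTCH3, HES1), 4 fell (CD3D, CD3G, CD1A, RAG1) and 2 were not called in limma. CD3D, a T-cell receptor component, averaged 11245 ± 1051 normalised counts with ciclopirox and 16707 ± 2321 with DMSO (SD, n = 3 each, limma adjusted p = 0.00179). The part of such shifts in the members' changes was not tested. Of 8 marker genes of other cell types, 0 were in the hairpin table, and the 4 in the ciclopirox table had at most 19.31 normalised counts. DHX15 averaged 16.97 ± 0.435 RPKM with shDHX15-1 and 16.5 ± 0.361 RPKM with shDHX15-2, against 43.4 ± 0.649 RPKM with shGFP (SD, n = 3 each). The log2 difference of DHX15 between the hairpins, shDHX15-2 minus shDHX15-1, was −0.04 (SE 0.0255, limma adjusted p = 0.200).

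The hairpins asked how the transcriptome of leukemia cells changes when DHX15 is depleted. All 38 biogenesis factors fell with shDHX15-1, and 33 fell with shDHX15-2, where 1 (NOB1) rose and 4 (POLR1B, POLR1C, UTP15, NPM1) were not called. Calls rest on limma with log2(RPKM + 1) at an adjusted p (Benjamini-Hochberg) under 0.05, and this scale understates the change of low genes. Of all 15022 genes tested, 28.9% were called lower and 45.4% higher with shDHX15-1, and 30.1% lower and 35.6% higher with shDHX15-2. The median log2 fold change of the members was −0.57 with shDHX15-1 and −0.29 with shDHX15-2, against medians of 0.09 and 0.03 over all genes tested. For the mean of both hairpins 37 of 38 fell with a median of −0.42, while 30.2% of all genes were called lower and 42.6% higher. In the 3 libraries with shDHX15-1 all 38 members lay below all 3 shGFP libraries, and with shDHX15-2 this held for 33 (29.9% and 32% of all genes). NOB1 lay above shGFP in all 3 shDHX15-2 libraries, as did 37.8% of all genes. Both contrasts share the shGFP libraries, so they are not independent of each other. In bulk RNA fewer cells of a kind and less RNA per cell cannot be told apart.

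Members took 0.443% to 0.447% of the reads in genes with shDHX15-1 and 0.540% to 0.543% with shDHX15-2, against 0.627% to 0.639% with shGFP. The ranges of the 3 groups did not overlap, with shDHX15-1 lowest and shDHX15-2 between. The ratio of mean RPKM to shGFP was at most 0.5 for 8 members with shDHX15-1 (1.62% of all genes) and for 1, CCDC86, with shDHX15-2 (1.22% of all genes).

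**Figure D1:**
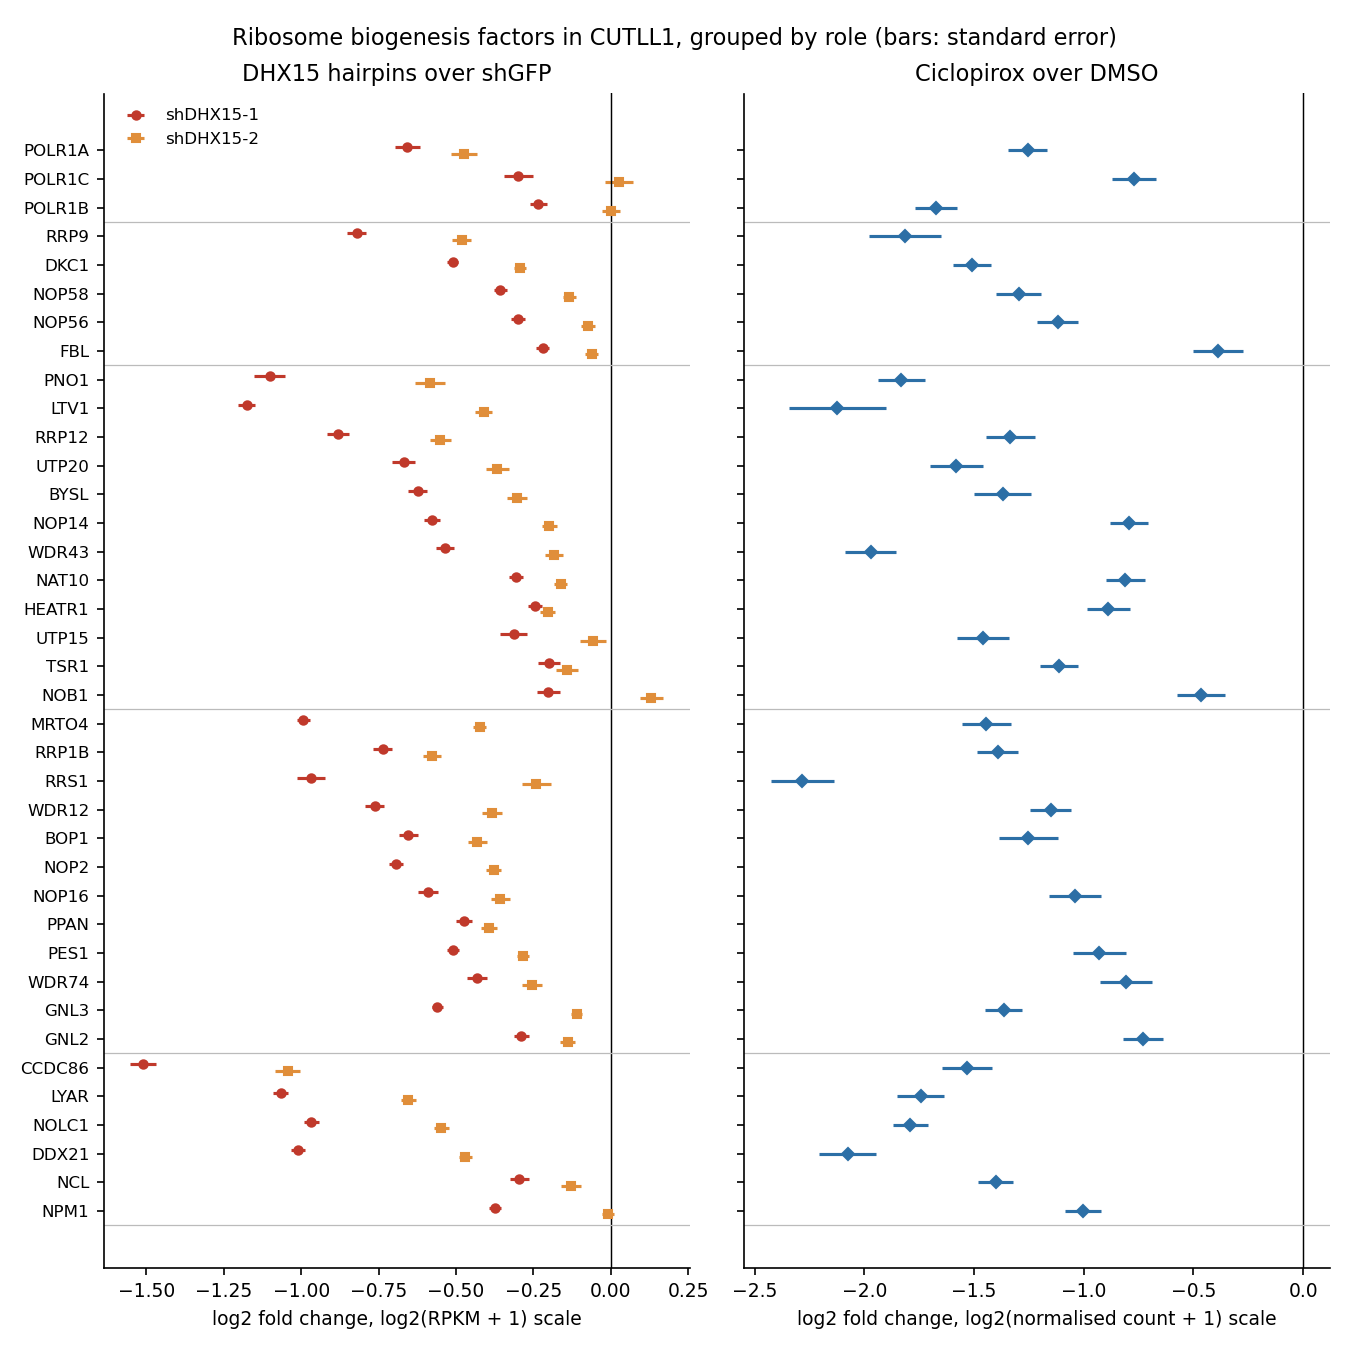
Log2 fold changes of the 38 members, grouped by role from the top (RNA polymerase I subunits, snoRNP proteins, 90S and pre-40S factors, pre-60S factors, nucleolar chaperones and others). Left, shDHX15-1 (circles) and shDHX15-2 (squares) over shGFP; right, ciclopirox over DMSO, for 36 members; bars are standard errors and the vertical line is 0. Only NOB1 was called above 0 on the left, with shDHX15-2, and all 36 points on the right lie below 0.

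Among nucleolar chaperones and related proteins, the falls were the deepest of any role, with a median of −0.99 over 6 genes with shDHX15-1 and −0.51 with shDHX15-2. CCDC86, a nucleolar protein, had 13.6, 13.3 and 14.3 RPKM with shDHX15-1 and 20.0, 18.9 and 19.1 RPKM with shDHX15-2, against 38.8, 42.8 and 41.5 RPKM with shGFP. It had the largest mean fall of the 38 members, −1.28 (SE 0.0352, limma adjusted p = 7.16e-09). LYAR, a nucleolar zinc finger protein, had 13.4, 13.9 and 14.03 RPKM with shDHX15-1 and 19.1, 18.4 and 18.4 RPKM with shDHX15-2, against 29.7, 30.1 and 29.96 RPKM with shGFP. Its 3 groups did not overlap, and the mean change was −0.86 (SE 0.0207, limma adjusted p = 3.48e-09). NOLC1, a phosphoprotein that accompanies snoRNPs, had 45.2, 47.3 and 45.2 RPKM with shDHX15-1 and 62.7, 61.5 and 61.1 RPKM with shDHX15-2, against 88.9, 90.7 and 92.5 RPKM with shGFP. DDX21, a helicase of ribosomal RNA transcription and processing, had 35.4, 35.2 and 34.8 RPKM with shDHX15-1 and 51.1, 51.2 and 52.4 RPKM with shDHX15-2, against 70.0, 72.0 and 73.4 RPKM with shGFP. For both genes every shDHX15-1 library lay below every shDHX15-2 library, and the mean changes were −0.76 for NOLC1 and −0.74 for DDX21.

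NPM1, the most highly expressed member per length and a histone and ribosome chaperone, separated the hairpins. It had 208, 217 and 210.1 RPKM with shDHX15-1 and 269, 273 and 276 RPKM with shDHX15-2, against 274, 276 and 274 RPKM with shGFP. All 3 shDHX15-1 libraries were below the rest, whereas shDHX15-2 overlapped shGFP, with log2 fold changes of −0.37 (limma adjusted p = 2.79e-07) and −0.01 (limma adjusted p = 0.689). NCL, a nucleolar RNA chaperone, changed by −0.30 and −0.13. NPM1, NCL and NOP56 have pseudogene copies that can share their reads, so their values are uncertain to that extent.

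Among the 12 factors of the 90S and pre-40S particles, the medians were −0.56 with shDHX15-1 and −0.20 with shDHX15-2. PNO1, which partners the endonuclease NOB1 on the pre-40S particle, had 5.23, 5.10 and 5.89 RPKM with shDHX15-1 and 8.01, 7.98 and 8.498 RPKM with shDHX15-2, against 12.99, 12.98 and 12.3 RPKM with shGFP. Its mean change was −0.84 (SE 0.0425, limma adjusted p = 2.32e-07). LTV1, a pre-40S assembly factor, had 12.6, 12.5 and 12.8 RPKM with shDHX15-1 and 22.4, 21.5 and 22.7 RPKM with shDHX15-2, against 29.02, 30.6 and 29.8 RPKM with shGFP. The groups did not overlap, and the changes were −1.18 and −0.41. RRP12, a factor of pre-40S export, changed by −0.88 and −0.55, UTP20 of the small subunit processome by −0.67 and −0.37, and BYSL, an early 40S factor, by −0.62 and −0.30. NOP14 of the same processome changed by −0.58 and −0.20, its neighbour WDR43 by −0.54 and −0.18, and the ribosomal RNA acetyltransferase gene NAT10 by −0.31 and −0.16.

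NOB1, the endonuclease that makes the final cut of 18S ribosomal RNA, went in opposite directions. It had 30.99, 30.9 and 31.8 RPKM with shDHX15-1 and 39.5, 38.3 and 41.1 RPKM with shDHX15-2, against 38.1, 35.7 and 34.6 RPKM with shGFP. Both hairpins were separated from shGFP, by a narrow gap for shDHX15-2, with changes of −0.20 (limma adjusted p = 0.00102) and 0.13 (limma adjusted p = 0.0133), and the mean of both was −0.04 (limma adjusted p = 0.353). The call of a rise with shDHX15-2 ended after median-centring of the libraries (0.09) and without shDHX15-2 replicate 3 (0.11). HEATR1, a processome factor that also serves RNA polymerase I transcription, had 13.9, 14.1 and 13.5 RPKM with shDHX15-1 and 14.01, 14.3 and 14.4 RPKM with shDHX15-2, against 16.8, 16.6 and 16.4 RPKM with shGFP. TSR1, a GTPase-like pre-40S factor, had 15.9, 17.1 and 16.9 RPKM with shDHX15-1 and 16.5, 17.8 and 17.7 RPKM with shDHX15-2, against 18.95, 19.4 and 19.3 RPKM with shGFP. In both genes the hairpins overlapped each other and lay below shGFP. UTP15, a processome factor, had 3.39, 3.38 and 3.38 RPKM with shDHX15-1 and 3.88, 4.39 and 4.44 RPKM with shDHX15-2, against 4.42, 4.48 and 4.43 RPKM with shGFP. The shDHX15-2 libraries overlapped shGFP, and the change there was −0.06 (limma adjusted p = 0.269).

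All 12 pre-60S factors fell with both hairpins. MRTO4, which holds the place of a stalk protein on the pre-60S particle, had 11.8, 11.4 and 11.8 RPKM with shDHX15-1 and 17.99, 17.7 and 17.6 RPKM with shDHX15-2, against 24.3, 24.3 and 23.95 RPKM with shGFP. RRS1, which helps place 5S ribosomal RNA, had 13.6, 12.7 and 14.2 RPKM with shDHX15-1 and 22.6, 23.7 and 22.8 RPKM with shDHX15-2, against 27.6, 25.8 and 28.8 RPKM with shGFP. In both genes the 3 groups stood apart, with changes of −0.99 and −0.42 for MRTO4 and −0.97 and −0.24 for RRS1. The PeBoW complex of 28S maturation moved as a whole, with changes of −0.51 and −0.28 for PES1, −0.65 and −0.43 for BOP1 and −0.76 and −0.38 for WDR12. RRP1B changed by −0.74 and −0.58, the 28S methyltransferase gene NOP2 by −0.69 and −0.38, NOP16 by −0.59 and −0.36, and PPAN by −0.47 and −0.39. The GTPase genes GNL3 and GNL2 changed by −0.56 and −0.11 and by −0.29 and −0.14, and WDR74 by −0.43 and −0.25. RRS1, NOP14 and PPAN overlap other annotated transcripts, and no source used here says whether counting used strand.

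The transcription and modification machinery moved least. POLR1A, the catalytic subunit of RNA polymerase I, fell with both hairpins, by 0.66 with shDHX15-1 and by 0.48 with shDHX15-2 on the log2 scale. POLR1B, the second-largest subunit, had 6.36, 6.46 and 6.36 RPKM with shDHX15-1 and 7.82, 7.44 and 7.87 RPKM with shDHX15-2, against 7.86, 7.60 and 7.65 RPKM with shGFP. POLR1C, shared with RNA polymerase III, had 7.09, 6.32 and 6.89 RPKM with shDHX15-1 and 8.29, 9.26 and 8.63 RPKM with shDHX15-2, against 8.57, 8.57 and 8.47 RPKM with shGFP. For both subunits only shDHX15-1 lay below shGFP (changes of −0.23 and −0.30), and shDHX15-2 gave 0.00 (limma adjusted p = 0.978) and 0.03 (limma adjusted p = 0.624). FBL, the methyltransferase of box C/D snoRNPs, had 79.0, 76.5 and 75.9 RPKM with shDHX15-1 and 87.8, 85.6 and 85.0 RPKM with shDHX15-2, against 91.0, 89.1 and 89.8 RPKM with shGFP. Its groups did not overlap although its changes were small, −0.22 and −0.06 (limma adjusted p = 0.0279 for shDHX15-2). The FBL partners NOP56 and NOP58 changed by −0.30 and −0.07 and by −0.36 and −0.13, the pseudouridine synthase gene DKC1 by −0.51 and −0.29, and RRP9 of the U3 snoRNP by −0.82 and −0.48.

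**Figure D2:**
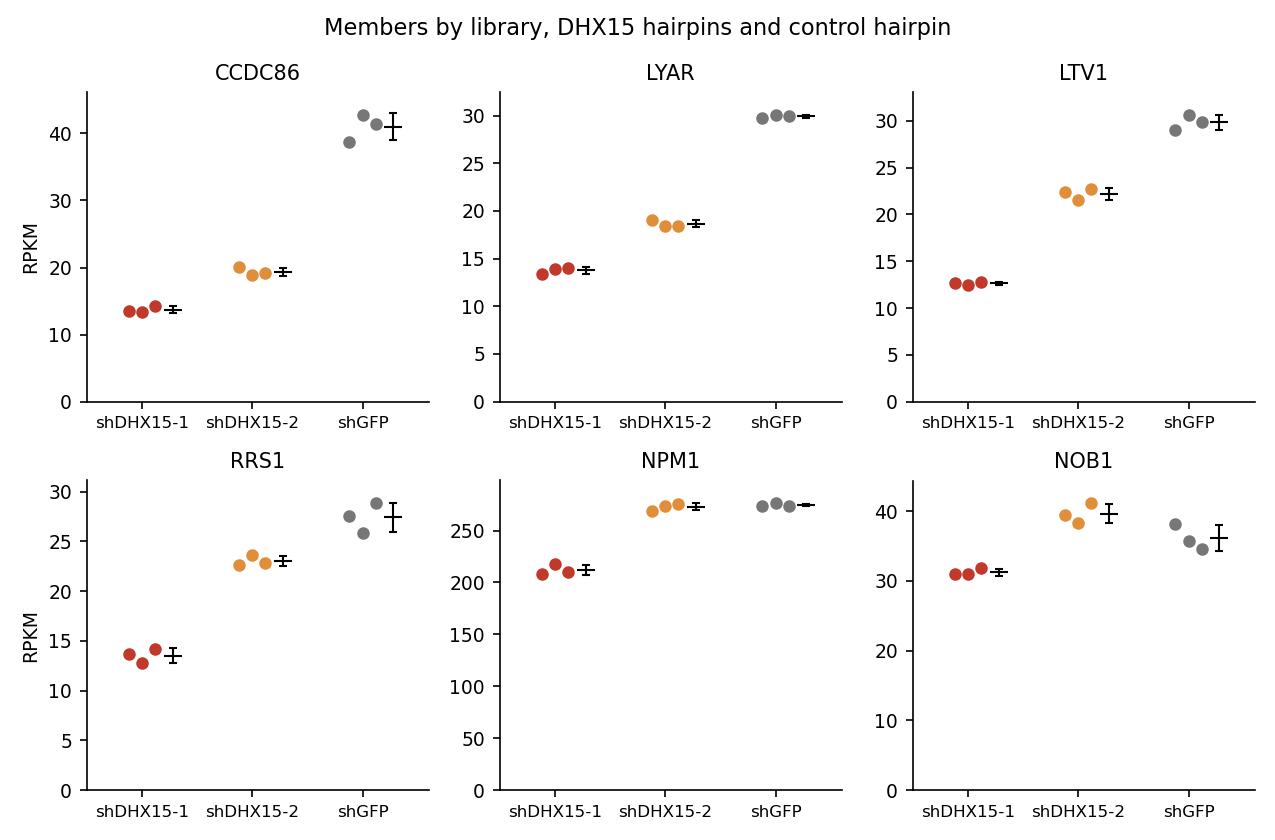
RPKM of 6 members in each library with shDHX15-1, shDHX15-2 and shGFP (points, 3 libraries each), with the mean and SD beside them; axes start at 0. CCDC86, LYAR, LTV1 and RRS1 step up from shDHX15-1 to shDHX15-2 to shGFP, NPM1 is low with shDHX15-1 only, and NOB1 is lowest with shDHX15-1 and highest with shDHX15-2.

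The hairpins differed from each other in nearly all members. In the direct contrast of shDHX15-2 minus shDHX15-1, 36 of 38 were called higher, with a median of 0.31, while 23.2% of all genes were called higher and 37.9% lower. The 4 largest differences were in LTV1 (0.77), RRS1 (0.73), MRTO4 (0.57) and DDX21 (0.54), and HEATR1 (0.04, limma adjusted p = 0.159) and TSR1 (0.06, limma adjusted p = 0.180) were not called. MYC, a transcription factor known to drive many biogenesis genes, averaged 52.8 ± 0.738 RPKM with shDHX15-1 and 54.4 ± 1.18 RPKM with shDHX15-2, against 89.6 ± 0.483 RPKM with shGFP (SD, n = 3 each). The MYC difference between the hairpins was 0.04 (SE 0.0201, limma adjusted p = 0.100), and its part in the members' falls was not tested.

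The ciclopirox comparison asked which transcripts change when leukemia cells are exposed to the drug. All 36 members in the table fell, with a median log2 fold change of −1.35 on the log2(normalised count + 1) scale, against −0.02 over all 16825 genes tested, of which 25% were called lower and 23.5% higher. DMSO replicate 1 stood apart from the other 2 DMSO libraries, and without it all 36 members were again called lower. In all 36 the ciclopirox libraries lay below the DMSO libraries, as they did in 28.6% of all genes. The ratio of mean normalised counts was at most 0.5 in 27 of 36 members and in 6.38% of all genes. Normalised counts are not per length, so they compare libraries and not genes.

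RRS1 had 447, 619 and 424 normalised counts with ciclopirox, against 2509.7, 2358 and 2302 with DMSO. That was the lowest ratio of all members, 0.208, with a log2 fold change of −2.28 (SE 0.143, limma adjusted p = 1.04e-06). LTV1 had 92.7, 92.7 and 125 normalised counts with ciclopirox, against 325, 529 and 526 with DMSO. DDX21 had 5064, 4647 and 5921 normalised counts with ciclopirox, against 18122, 23875 and 24161 with DMSO. In both genes DMSO replicate 1 was the lowest of its group, and the changes were −2.12 and −2.08. LTV1 had only 269 to 532 reads in the DMSO libraries, against 3222 to 3458 in the shGFP libraries of the same line. Its place among the largest falls rests on those few reads, and the cause of that gap was not tested. WDR43, which changed by only −0.36 on average with the hairpins, had 1863, 1695 and 2104 normalised counts with ciclopirox, against 6403, 8025 and 7772 with DMSO. Its fall of −1.97 (SE 0.116, limma adjusted p = 6.71e-07) was the fourth in order of size. PNO1 had 719, 663 and 732 normalised counts with ciclopirox, against 2679.8, 2598 and 2265 with DMSO. RRP9 had 1075, 1178 and 755 normalised counts with ciclopirox, against 4043, 3265 and 3150.3 with DMSO. Neither gene's groups overlapped, and the changes were −1.83 for PNO1 and −1.81 for RRP9.

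The smallest falls were in FBL, NOB1, GNL2 and POLR1C. FBL had 9385, 9796 and 7727 normalised counts with ciclopirox, against 13232, 11148 and 10807 with DMSO. The groups stood apart by a narrow margin, with a change of −0.39 (SE 0.114, limma adjusted p = 0.0156). That call ended after quantile normalisation (−0.11) and without ciclopirox replicate 3 (−0.28). NOB1 had 3154, 3167 and 2819 normalised counts with ciclopirox, against 4841, 3878 and 3939.7 with DMSO. GNL2 had 2559, 2233 and 2315 normalised counts with ciclopirox, against 3969.6, 3833 and 3970.4 with DMSO. POLR1C had 5649.5, 6014 and 5247 normalised counts with ciclopirox, against 10761, 9177 and 8960.2 with DMSO. No ciclopirox library of these genes reached a DMSO library, and the changes were −0.46, −0.73 and −0.77. POLR1C had 8763 to 9234 reads in the DMSO libraries, against 1478 to 1521 in the shGFP libraries, and the cause of that gap was not tested.

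By role, the median ciclopirox change was −1.64 for the 6 nucleolar chaperones and related proteins, −1.35 for the 12 pre-40S factors, −1.30 for the 5 snoRNP proteins, −1.26 for the 3 polymerase subunits and −1.20 for the 10 pre-60S factors. POLR1B, which fell with shDHX15-1 (−0.23) and was not called with shDHX15-2, changed by −1.67, and POLR1A by −1.26. NOLC1 changed by −1.79, LYAR by −1.74, CCDC86 by −1.53, NCL by −1.40 and NPM1 by −1.01. NCL had 30414, 27682 and 30212 normalised counts with ciclopirox, against 76019.9, 78574 and 78431 with DMSO. The box C/D proteins were uneven, with −1.30 for NOP58, −1.12 for NOP56 and the small change of FBL, while DKC1 changed by −1.51. Among pre-40S factors UTP20 changed by −1.58, UTP15 by −1.46, BYSL by −1.37, RRP12 by −1.33, TSR1 by −1.11, HEATR1 by −0.89, NAT10 by −0.81 and NOP14 by −0.79. Among pre-60S factors MRTO4 changed by −1.44, RRP1B by −1.39, GNL3 by −1.37, BOP1 by −1.25, WDR12 by −1.15, NOP16 by −1.04, PES1 by −0.93 and WDR74 by −0.81. Members took 0.477% to 0.504% of the reads in genes with ciclopirox, against 1.011% to 1.053% with DMSO.

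DHX15 itself averaged 9467 ± 661 normalised counts with ciclopirox and 15832 ± 1171 with DMSO, and MYC averaged 4392 ± 200.9 with ciclopirox and 22117 ± 2402 with DMSO (SD, n = 3 each). Their log2 fold changes were −0.74 and −2.33, and their part in the members' falls was not tested. Across the 36 members the mean change with the hairpins and the change with ciclopirox had a Pearson r of 0.604 and a Spearman rho of 0.627. The points are genes measured in the same libraries, so this is a description. Across the 38 members, the RPKM level with shGFP and the mean change with the hairpins had a Pearson r of 0.018 and a Spearman rho of 0.009, also a description.

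**Figure D3:**
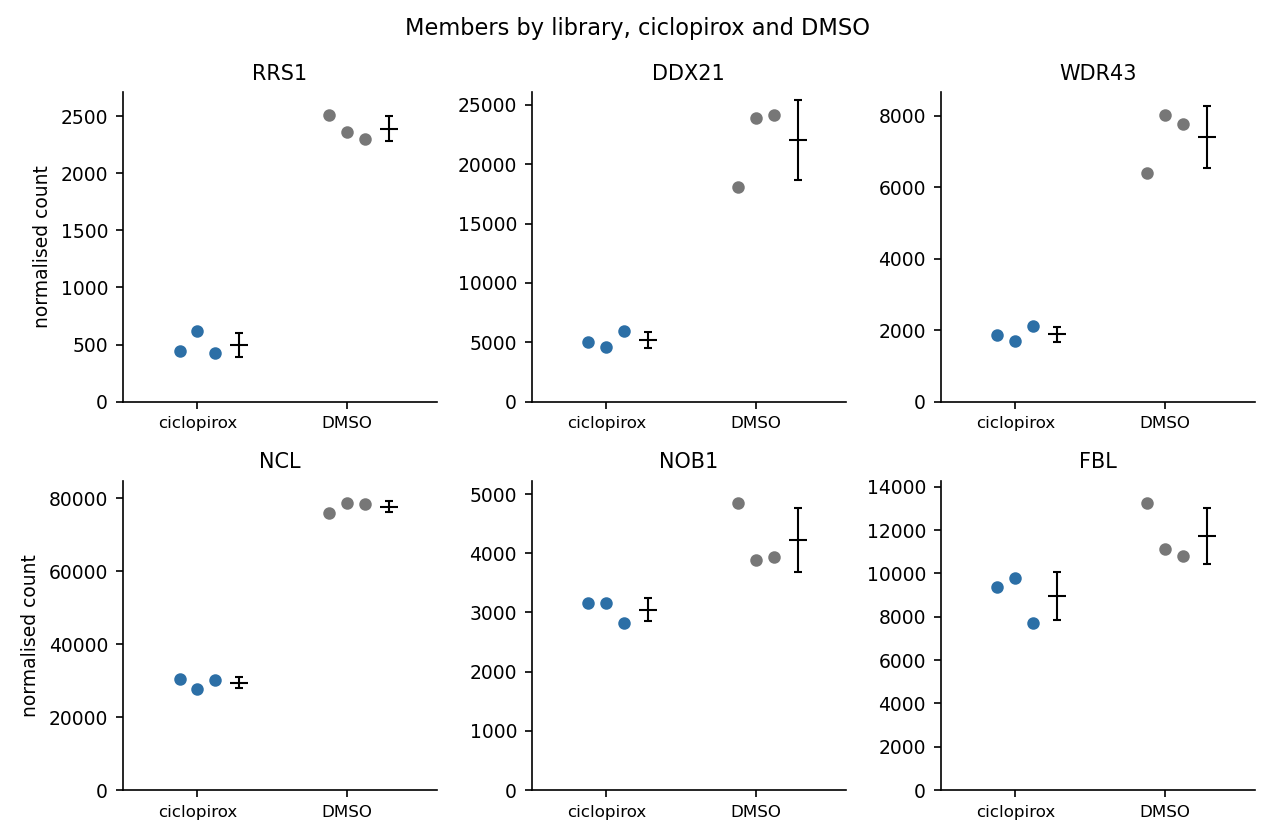
Normalised counts of 6 members in each ciclopirox and DMSO library (points, 3 libraries each), with the mean and SD beside them; axes start at 0. RRS1, DDX21, WDR43 and NCL show wide gaps between the groups, and NOB1 and FBL narrow ones.

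Most further genes of the pathway also fell, with smaller medians. Of 131 other biogenesis genes, 107 fell and 4 rose for the mean of both hairpins, with a median of −0.27, and 113 of 129 fell and 1 rose with ciclopirox, with a median of −0.79. SHQ1, an H/ACA assembly factor, averaged 8.37 ± 0.182 RPKM with shDHX15-1 and 9.80 ± 0.232 RPKM with shDHX15-2, against 19.5 ± 0.359 RPKM with shGFP (SD, n = 3 each). It had the largest fall of that list, −1.02, before the pre-60S factor EBNA1BP2 (−0.92), the processome factor WDR46 (−0.83) and the H/ACA protein GAR1 (−0.72). The 4 that rose were TAF1C of the polymerase I promoter complex (0.46), the kinase NOL9 (0.40), the exosome subunit EXOSC8 (0.11) and the ATPase NVL (0.09). With ciclopirox the largest falls were in WDR3 (−2.20), DDX10 (−1.78), NOL6 (−1.64) and MYBBP1A (−1.64), and the only rise was in ZNHIT3 (0.33), a snoRNP assembly factor.

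Genes of the ribosomal proteins, the building blocks rather than the builders, moved otherwise. Of 79, 45 fell and 8 rose with shDHX15-1 (median −0.10), whereas 2, RPL39 and RPLP2, fell and 63 rose with shDHX15-2 (median 0.16). Between the hairpins, 75 were called higher with shDHX15-2 than with shDHX15-1, in the same direction as 36 of the 38 members. With ciclopirox 2 of 74 tested were called, RPL6 (−0.28) and RPL22 (−0.82), both lower. The median was −0.06 and the range −0.82 to 0.27, against a range of −2.28 to −0.39 for the members.

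**Figure D4:**
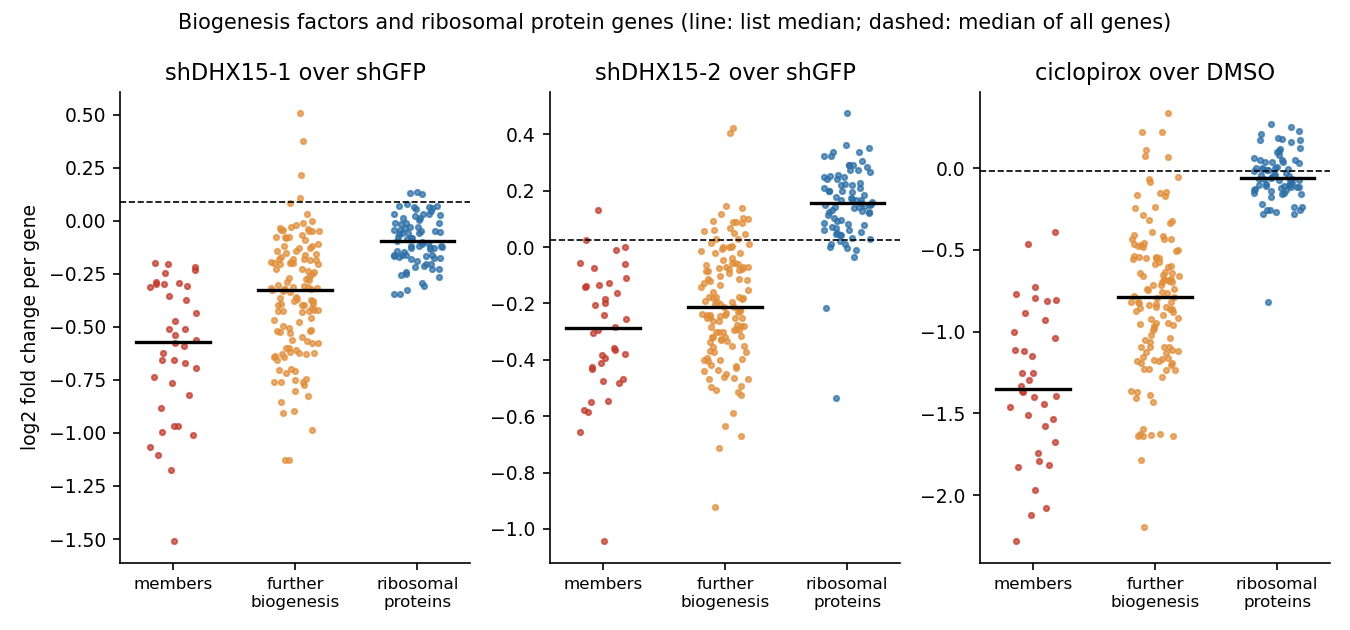
Log2 fold change of each gene (points) with shDHX15-1, shDHX15-2 and ciclopirox for the 38 members (36 with ciclopirox), 131 further biogenesis genes and 79 ribosomal protein genes. Solid lines are list medians (members −0.57, −0.29 and −1.35) and dashed lines the medians of all genes tested; the vertical axes differ in range.

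The members' start sites were then read in RefSeq for GRCh38.p14, where 32 of 38 had a promoter entry. The E-box CACGTG, which reads the same on both strands, was in the 250 bases upstream of 5 of 32 members (15.6%), against 11.3% of 8745 genes tested in the hairpin table and 4.76% of 63 ribosomal protein genes. Those members were CCDC86, LYAR, DDX21, NAT10 and UTP20. In every list a gene with several starts counted when any of them had the motif. For LYAR and DDX21 the E-box lay upstream of some of their starts only. The ETS core CGGAAG, on either strand, was in 13 of 32 members (40.6%), against 35.6% of genes tested and 60.3% of ribosomal protein genes. The 2 motifs cannot overlap each other. A match describes letters in a window and not a binding site. The 100 bases before the start of 3 E-box genes are shown because they include the gene with the largest hairpin fall, and LTV1 because it had the largest difference between hairpins and the strongest RIP peak. Capitals mark the E-box in the first 3 and the ETS core, read on the minus strand, in LTV1.
CCDC86 (chr11:60842013-60842112, plus strand): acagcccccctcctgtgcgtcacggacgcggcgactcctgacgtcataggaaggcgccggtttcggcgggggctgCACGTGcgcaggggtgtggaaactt
UTP20 (chr12:101280005-101280104, plus strand): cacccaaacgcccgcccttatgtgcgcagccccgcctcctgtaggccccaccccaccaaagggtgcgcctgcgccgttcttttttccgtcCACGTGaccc
NAT10 (chr11:34105529-34105628, plus strand): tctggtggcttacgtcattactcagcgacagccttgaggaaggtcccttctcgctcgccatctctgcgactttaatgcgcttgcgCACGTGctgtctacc
LTV1 (chr6:143843238-143843337, plus strand): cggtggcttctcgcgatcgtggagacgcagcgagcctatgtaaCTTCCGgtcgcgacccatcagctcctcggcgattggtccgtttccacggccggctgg
The E-box ended 20 bases before the start in CCDC86, 5 bases in UTP20 and 10 bases in NAT10, and the ETS core of LTV1 ended 52 bases before it.

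RIP peaks addressed which RNAs are bound by DHX15. The authors' list held 4499 peaks, and 7 of 38 members (18.4%) overlapped at least 1, against 26.2% of 10027 protein-coding genes tested and 25.4% of those within the members' range of RPKM. Of the further biogenesis genes 21.4% had a peak, and of the ribosomal protein genes 12.7%. The list names no genome build, and 89.3% of peaks lay inside protein-coding genes of GRCh38, against 44.9% to 52.0% after shifting the positions.

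LTV1 carried the peak with the highest fold enrichment among members, 3.95 (FDR 1.89e-32), at chr6:143863260-143863590 on the strand of the gene, 19922 bases past its start. It was the only member peak with a fold of at least 2, which 5.07% of the protein-coding genes tested had. UTP15 held a peak of 1.89-fold at chr5:73572588-73576965, and POLR1C one of 1.73-fold at chr6:43521289-43521339. GNL3 held a peak of 1.58-fold at chr3:52685999-52686349, which began 79 bases past its start. WDR74 had a peak of 1.504-fold on its own strand at chr11:62840346-62841809. This peak lay wholly upstream of the WDR74 promoter windows that held an ETS core, which end at chr11:62839840 and chr11:62839909 on the minus strand. WDR74 also had a peak of 1.90-fold at chr11:62832233-62833753 on the opposite strand, which overlapped TEX54 as well. Other genes at a peak were looked up among protein-coding genes only. NOP14 had a peak of 1.53-fold at chr4:2946978-2947053 on the opposite strand, and the PPAN peak of 1.58-fold at chr19:10106222-10106272 crossed the edge of the gene. Fold and FDR are the authors' values, and no source used here says which libraries were pooled for them. For the mean of both hairpins the 7 members with a peak changed by −0.79 (LTV1) to −0.14 (POLR1C).

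The thymus libraries asked how thymocytes differ without Dhx15. After filters for at least 500 genes and at most 10% mitochondrial UMIs, 7261 of 8484 barcodes of the KO library and 8818 of 9434 barcodes of the flox library were kept, with medians of 7197 and 3710 UMIs, and 17 barcodes occurred in both. With 1 library per genotype there is no test, and intervals cover counting error only. CPM are UMIs scaled to the UMI total of the cells summed, either all kept cells of a library or its cells in a cluster. Over all kept cells Dhx15 stood at 100.2 CPM in the KO library (95% Poisson interval 97.9 to 102) and 181 CPM in the flox library (177 to 185). This check is limited by 3' tags that can lie outside the deleted part.

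Over all kept cells, members together made up 5876 CPM in the KO library (5859 to 5894) and 4042 CPM in the flox library (4024 to 4060). By ratio, 16 of 38 were at least 1.5-fold higher in the KO library and 0 at least 1.5-fold lower, with a median ratio of 1.45, against 15.7% higher, 16.5% lower and a median of 0.942 over 13456 genes. Ribosomal protein genes took 27.3% of UMIs in the KO library and 19.9% in the flox library. With these and mitochondrial genes left out of the total, 28 of 38 members were at least 1.5-fold higher. That change of total raised the ratio of every remaining gene, and no share of all genes is given for it. The ratios below use the full total. Gnl3 had the highest ratio, 2.03, with 141 CPM in the KO library (139 to 144) and 69.4 CPM in the flox library (67.1 to 71.8). Rrp1b followed at 1.96 and Nop58 at 1.87, then Polr1b and Nat10 at 1.74 each, Nolc1 at 1.72, Nop2 at 1.71 and Rrp12 at 1.67. Lyar, Pno1, Dkc1, Rrs1, Npm1, Wdr43, Ccdc86 and Nop14 lay between 1.52 and 1.64. Wdr12 had the lowest ratio, 0.779, with 133 CPM in the KO library (130.3 to 136) and 171 CPM in the flox library (167 to 174), and Bysl stood at 0.947. Myc stood at 109 CPM in the KO library and 55.0 CPM in the flox library.

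The cells behind these sums differed between the libraries. Clusters 8 and 13, named S phase-like for markers such as Mcm5, Mcm6 and Hells (cluster 8 also had 6 of 8 G2 and mitosis markers), held 22.99% of kept cells and 47.3% of UMIs in the KO library, against 4.38% of cells and 17.45% of UMIs in the flox library. Member levels were the highest there of the 8 clusters compared, with 8310 CPM in the KO library and 8938 CPM in the flox library for cluster 8, and 8417 CPM in the KO library and 8133 CPM in the flox library for cluster 13. In resting double-positive-like cluster 2 they were 2246 CPM in the KO library and 2360 CPM in the flox library. The 8 clusters compared held only 49.15% of kept cells in the KO library and 41.28% in the flox library. Clusters 0 and 11, with 7 and 8 of 9 resting double-positive markers, were left out for too few cells in 1 library. Cluster 0 held 77 KO and 3053 flox cells, and cluster 11 held 1314 KO and 69 flox cells. Clustering was done without the members.

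In clusters 8 and 13, 0 of 38 members were at least 1.5-fold higher or lower, with median ratios of 0.994 and 1.07, ranges of 0.780 (Ddx21) to 1.24 (Nop14) and 0.892 (Polr1b) to 1.40 (Rrp1b), while 7.81% of all genes were higher and 4.58% lower in cluster 8, and 9.22% and 6.75% in cluster 13. Dhx15 stood at 83.9 CPM in the KO library and 217 CPM in the flox library of cluster 8, and at 96.4 CPM in the KO library and 225 CPM in the flox library of cluster 13. Thinning each cell to 2000 UMIs gave 2 members at least 1.5-fold higher in cluster 8, and 4 higher and 2 lower in cluster 13. No share of all genes is given after thinning, here or in the clusters below.

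In DN2-DN3-like cluster 15, the early thymocytes marked by Il2ra, Dtx1 and Ptcra, members summed to 5085 CPM in the KO library (5043 to 5126) and 5824 CPM in the flox library (5693 to 5957), with a median ratio of 0.815. The 3 members at least 1.5-fold lower (5.18% of all genes) were Polr1b, with 15.6 CPM in the KO library (13.4 to 18.03) and 24.9 CPM in the flox library (17.02 to 35.1), Bop1 with 31.7 CPM in the KO library and 48.99 CPM in the flox library, and Ddx21 with 161 CPM in the KO library and 250.4 CPM in the flox library. None was 1.5-fold higher, against 10.7% of all genes, and after thinning to 2000 UMIs per cell 2 were higher and 4 lower. The counting intervals of Ddx21 did not overlap, at 154 to 169 CPM in the KO library and 224 to 279 CPM in the flox library, whereas those of Polr1b met. Dhx15 differed least there of the 8 clusters, with 130 CPM in the KO library and 151 CPM in the flox library.

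In G2 and mitosis-like cluster 10, 10 of 36 members with at least 30 UMIs were at least 1.5-fold lower in the KO library, against 11.8% of all genes, and 1 was higher, against 9.23%. The lower ones were Bysl (0.452), Nat10 (0.475), Mrto4 (0.514), Nop16 (0.534), Rrp9 (0.575), Ddx21 (0.579), Fbl (0.620), Tsr1 (0.634), Ncl (0.650) and Gnl3 (0.655), and the higher one was Utp15 at 1.504. After thinning to 2000 UMIs per cell 1 was lower and 3 were higher. In G2 and mitosis-like cluster 4, 3 of 36 members (8.33%) were higher, near the 7.46% of all genes, namely Tsr1 (1.73), Wdr43 (1.65) and Nop2 (1.62). Bysl (0.623) was lower there, 2.78% of members against 8.97% of all genes, and the median ratio was 1.11.

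In cluster 5, with the T-cell receptor signalling markers Egr1, Egr2 and Cd69, 4 of 37 members were higher (8.9% of all genes), namely Nop14 (1.90), Gnl3 (1.86), Rrs1 (1.67) and Dkc1 (1.62), and Utp20 was lower (0.578), against 11.9% of all genes. In CD4 single-positive-like cluster 6, which also had 6 of 8 T-cell receptor signalling markers, 5 of 38 were higher (10.7% of all genes). These were Nob1 (2.04), Nop14 (1.82), Wdr43 (1.77), Ccdc86 (1.65) and Polr1b (1.52), with none 1.5-fold lower (14.4% of all genes). The shares of members higher, 10.8% in cluster 5 and 13.2% in cluster 6, were near those of all genes. Member UMIs of the KO library came to only 3012 in cluster 5 and 2111 in cluster 6, which limits these single-gene ratios. In cluster 2 the KO library had 844 member UMIs, so single genes rest on few counts. There 4 of 33 were higher (12.1% of all genes), namely Ccdc86, Nop14, Rrs1 and Utp15, and 9 were lower (16.2% of all genes). Of the 9, Polr1a, Rrp9 and Utp20 had 1 UMI each in the KO library, Gnl3 3, Ltv1 and Ppan 4 each and Ddx21 16. Nop2 had 0 UMIs there, which allows up to 7.98 CPM when 3 counts are taken as the limit, against 10.6 CPM in the flox library. That limit is lower than the upper end of the Poisson interval used elsewhere. Heatr1 had 0 UMIs in the KO library of cluster 2, against 5.12 CPM in the flox library, below that limit.

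**Figure D5:**
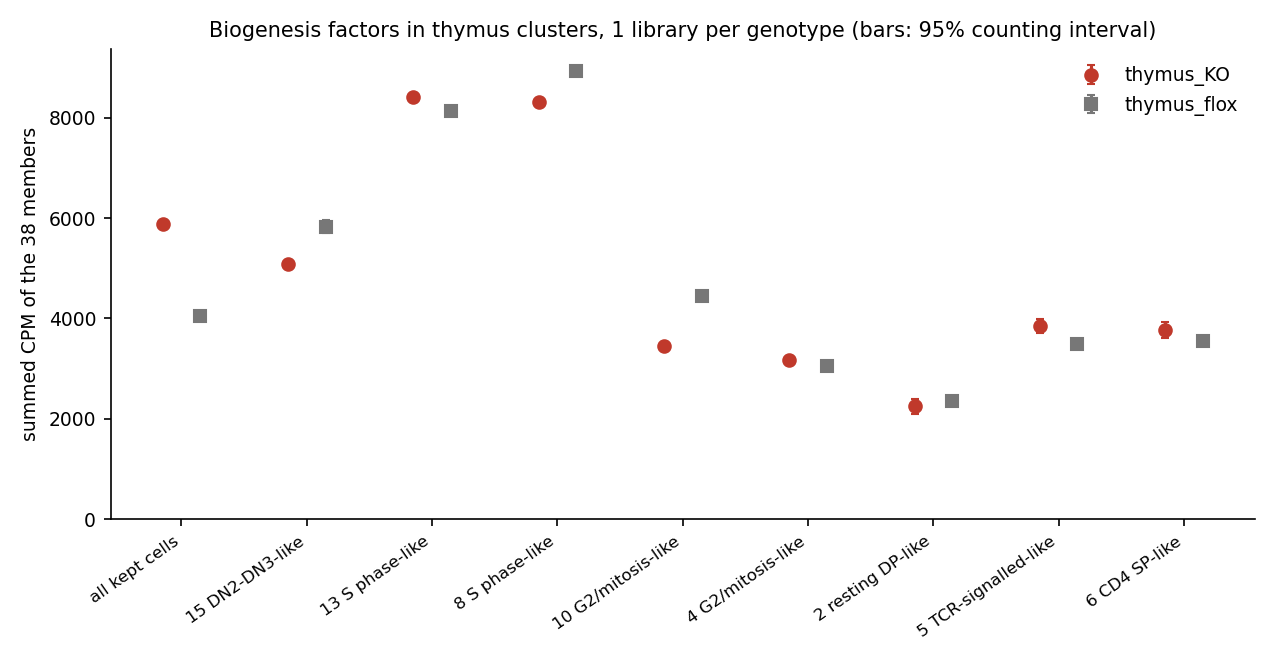
Summed CPM of the 38 members in all kept cells and in the 8 clusters with at least 100 cells in both libraries, for the KO library (circles) and the flox library (squares), with 95% Poisson intervals, most of them smaller than the symbols. The KO library is higher over all cells (5876 CPM, against 4042 CPM in the flox library), while clusters 8, 10, 15 and 2 are lower and clusters 13, 4, 5 and 6 higher in it.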

How the data were processed

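The authors deposited RPKM per gene for the hairpin libraries. The ciclopirox table as deposited holds a normalised signal per library (the authors' gene counts over a library size factor), with a log2 fold change and p-value that were not used here except to check the columns. The authors' peak list gives a fold ratio, p-value, FDR and score per RIP peak, of which the score was not used. The deposited thymus matrices hold whole UMI counts, made with Cell Ranger 6.0.1 per the file headers. Without saying what each was used for, the submitters' processing notes name STAR (2.4.1.7, 2.7.5c), FastQC (0.11.9), Scanpy (1.7.1), DESeq, DESeq2 (1.32.0) and Cell Ranger (6.0.2). No source used here names the strand setting or the peak caller.

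For hairpins, log2(RPKM + 1) was fitted over all 9 libraries on genes reaching 1 RPKM in 3 or more. For ciclopirox, log2(normalised count + 1) was fitted over 6 libraries on genes reaching 10 in 3 or more. Both used limma 3.58.1 in R 4.3.3 (empirical Bayes with trend, two-sided, Benjamini-Hochberg over all genes). On simulated counts this called 17.9% (hairpin mean) and 19.4% (ciclopirox) of 1.25-fold changes, and 100% and 98.5% of 2-fold changes. The simulated scatter was set in advance and not taken from these libraries, so this does not check the calls made here. Undoing the scaling gave whole reads for 100% of values within 0.01, and edgeR 4.0.16 and DESeq2 1.42.0 on those reads were alternatives. Thymus cells were clustered in scanpy 1.11.5 without the members (2000 variable genes, 30 components, Leiden resolution 1) and UMIs summed per library and cluster, counting genes with at least 30 UMIs. The doublet caller marked 1 barcode and so did not work, and doublets were kept. Cluster names were rebuilt from marker lists.

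Members, gene lists and tests were chosen with earlier results of these data known. Every member is named, and values by library are given for the 6 largest and 4 smallest changes of the hairpin mean and of ciclopirox, for members not called or called against the rest, and for the 4 largest differences between hairpins.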

Additional observations from a re-analysis of the deposited data

Results flagged for a closer look

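The 2 hairpins differed under a direct test in 36 members, all higher with shDHX15-2 than with shDHX15-1. The log2 difference was 0.77 for LTV1, 0.73 for RRS1, 0.57 for MRTO4 and 0.54 for DDX21. NOB1 differed by 0.33, lower with shDHX15-1 and higher with shDHX15-2 relative to shGFP.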

How the results depend on the processing

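Across other pseudocounts (0.1 RPKM or 10 counts), no low filter, median-centring, quantile normalisation, edgeR, DESeq2, a replicate block and leaving out 1 library, 38 members were called lower with shDHX15-1, 31 to 33 with shDHX15-2, 37 to 38 for the mean and 35 to 36 with ciclopirox, and 35 to 38 were higher with shDHX15-2 than with shDHX15-1. Across these settings 10611 to 12585 of all genes were called with shDHX15-1, 9103 to 10685 with shDHX15-2 and 10385 to 12208 for the mean. With ciclopirox 6447 to 9055 of all genes were called, and between the hairpins 8353 to 9942. These counts of all genes take both directions together. The cause of the changes below was not tested. Members called higher with shDHX15-2 (NOB1) came to 0 after median-centring and to 0 to 1 with 1 library left out. POLR1B with shDHX15-2 turned to −0.0384 (median-centred), −0.0335 (quantile), −0.0204 (edgeR) and −0.0315 (DESeq2), and lay between −0.0120 and 0.0231 with 1 library left out. POLR1C turned to −0.0125 (median-centred), −0.00326 (quantile) and −0.00119 (DESeq2), and lay between −0.0120 and 0.0594 with 1 library left out. With quantile normalisation NOP56 with shDHX15-2 turned to 0.00293 and the NOB1 mean to 0.0444, and that mean lay between −0.0657 and 0.00350 with 1 library left out. Among genes called between the hairpins the share higher was 35.6% to 54.1% across settings, and with shDHX15-1 against shGFP 46.0% to 63.6%. With a replicate block 38 members were lower with shDHX15-1, 33 with shDHX15-2 and 36 with ciclopirox, and it changed no member call. Same-numbered libraries had correlations of −0.001 to 0.095 (hairpins) and −0.108 to 0.163 (ciclopirox). Differently numbered ones had −0.123 to 0.047 (hairpins) and −0.289 to 0.182 (ciclopirox). The ranges overlapped and do not decide whether the numbers mark pairs. The labels do not say that they do, and the numbers were not taken as pairs. With a RIP fold of at least 2, 1 member had a peak.

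For the thymus, shares of all genes are given only at 1.5-fold, with the full total and all kept cells unthinned. The counts below thus describe the members alone and cannot be set against other genes. With a lower thymus fold minimum, a ratio of at least 5 to 4, 31 members were higher and 1 lower in the KO library over all cells. In that setting the counts higher and lower were 8 and 14 in cluster 2, 11 and 4 in cluster 4, 14 and 6 in cluster 5, 16 and 1 in cluster 6, and 2 and 18 in cluster 10. There 1 was lower in cluster 8, 3 were higher in cluster 13 and 18 lower in cluster 15. Without ribosomal protein and mitochondrial genes in the total, 28 were higher over all cells, 7 in cluster 5 and 2 in cluster 10. With cells thinned to 2000 UMIs (6988 KO and 8286 flox cells), 2 were lower in clusters 4 and 5 each and 1 in cluster 6, 2 were higher in cluster 8, 3 higher and 1 lower in cluster 10, 4 higher and 2 lower in cluster 13, and 2 higher in cluster 15. Without the 5% of barcodes with the highest doublet scores, a choice made after seeing the data, 2 were lower in cluster 4 and 2 higher in cluster 10. The cluster 8 median ratio turned to 1.06 (thinned), 1.003 (doublet scores) and 1.027 (without those genes). Of the 8 clusters compared, cluster 2 had the fewest UMIs in a library, 375761 in the KO library, which limits its single-gene values.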
